A study of Homo sapiens with 10 samples.

Results

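U-2 OS osteosarcoma cells transfected with a PcTF plasmid were compared with mock-transfected U-2 OS cells, which make up 2 of the 10 RNA-seq libraries of the series. PcTF is a synthetic transcription factor that joins the polycomb chromodomain of CBX8 to the red fluorescent protein mCherry and the activator VP64. The PcTF library (protein label PcTF, treated) comes from cells given 2 µg of plasmid DNA with Lipofectamine LTX, PLUS reagent and OptiMEM and grown for up to 96 h. The mock library (no protein, untreated) comes from cells of the same ATCC HTB-96 line given those reagents alone, so plasmid delivery and PcTF itself cannot be told apart. The plasmid is expressed without induction in these cells because they lack the Tet repressor, and only some cells of a transient transfection take it up. The other libraries used for comparison are PcTF-transfected and mock-transfected SK-N-SH neuroblastoma cells (up to 96 h) and K562 leukaemia cells (up to 48 h), with 2 µg of plasmid in the transfected library of each, and the transgenic U2OS-dTF line, which carries a truncated protein without the chromodomain and was given 1 µg/mL doxycycline for 96 h. All genes of the deposited table were taken and those with 1 FPKM or more (a read density scaled to gene length and to library depth) in either U-2 OS library were kept, which left 12406 of 23245 genes. The difference of a gene is log2((PcTF + 0.1)/(mock + 0.1)) in FPKM. Just inside the limit lay GATA3, at 1.0 FPKM in mock, and MTHFSD, at 1.0 FPKM with PcTF, and just outside C14orf21, at 0.999 FPKM in mock, and SCAND1, at 0.999 FPKM with PcTF. There is 1 library a side, so no difference has a replicate check, no test was possible and no p-value is given.

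Polycomb proteins silence genes by writing and reading trimethylation of histone H3 at lysine 27, and PcTF was built to bind that mark and recruit the activator to silent genes. Cells also respond to foreign nucleic acid: sensors in the cytosol signal to interferon regulatory factors and NF-kB, secreted interferons then act through their receptors, and the products of the induced genes block translation, degrade RNA, present antigen and attract leukocytes. U-2 OS cells are mesenchymal, and mesenchymal cells depend on a different set of signals, among them WNT, IGF, FGF and BMP ligands and the collagen-rich matrix they secrete.

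Depth was estimated from the FPKM step of 1 read in single-exon genes and came to about 4865000 reads for mock and 4270000 reads for PcTF. CBX8, which shares its chromodomain sequence with the transgene, was at 0.61 FPKM in mock cells and 6.43 FPKM in PcTF cells, about 11 and 98 reads. The study's control genes stayed under a 2-fold difference, with log2 differences of -0.19 for GAPDH, 0.41 for ACTB and 0.33 for CHMP2A. Of 16 markers of osteosarcoma and mesenchymal cells, 12 were kept. Of these, 2 were 2-fold higher with PcTF and 1 was 2-fold lower, with log2 differences from -1.34 to 1.32, against 12.1% and 5.57% of all kept genes. VIM, an intermediate filament protein of such cells, was at 385 FPKM in mock cells and 385 FPKM in PcTF cells. COL1A2 and TWIST1 were listed at 0 in both libraries. Among the markers of other cell types, 4 of 12 epithelial, 1 of 10 endothelial, 3 of 15 leukocyte, 2 of 10 erythroleukaemia and 5 of 12 neuroblastoma genes were kept. Of the 5 kept neuroblastoma genes 2 were 2-fold lower and none higher, with a median log2 difference of -0.90. Both lower genes were under 1 FPKM with PcTF and were kept only through the mock library. The kept epithelial, endothelial and leukocyte genes held 1 higher gene each and none lower, and no kept erythroleukaemia gene passed 2-fold. PTPRC, which encodes the pan-leukocyte antigen CD45, was at 0.220 and 0.0502 FPKM. The leukocyte markers CD2, CD14, LYZ, AIF1, SPI1, MS4A1 and TYROBP were listed at 0 on both sides, and the summed level of that list was 4.39 FPKM in mock and 9.25 FPKM with PcTF. Its kept members were CD3D and ITGAM, at 1.01 and 1.62 FPKM in mock cells and 1.3 and 3.03 FPKM in PcTF cells, and CD68, a lysosomal protein, at 0.743 and 4.24 FPKM.

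Of the 12406 kept genes, 1495 (12.1%) were 2-fold or more higher with PcTF and 691 (5.57%) were 2-fold or more lower. Small RNA symbols, described at the end, have unstable values, and without them the counts were 1424 (11.6%) and 622 (5.09%) of 12229 genes. The median difference was 0.08 on the log2 scale. An exact 95% binomial interval on the ratio of estimated reads excluded equality for 1005 of the 1208 higher and 424 of the 514 lower genes with a known transcript length. These intervals cover counting error only and say nothing of the spread between cultures. In bulk libraries such as these, fewer cells of a type and less RNA per cell cannot be told apart. Of genes at 1 to 10 FPKM in mock, 9.92% were higher and 7.55% lower, against 3.59% and 2.69% at 10 to 100 FPKM and 4.58% and 3.15% above 100 FPKM. Genes under 1 FPKM in mock had to reach 1 FPKM with PcTF to be kept, so their share of 64.7% higher is fixed in part by the filter. The mock level also enters the difference, so these bins are not independent of it.

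**Figure D1:**
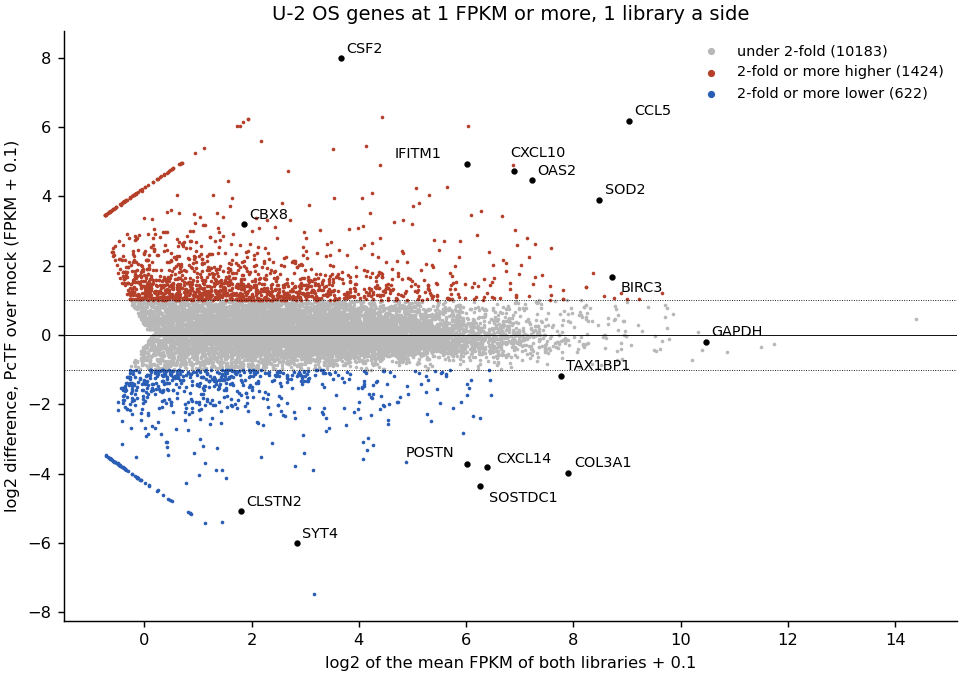
Log2 difference of each kept gene (PcTF over mock, FPKM + 0.1) against the log2 of its mean FPKM, small RNA symbols left out, with 1 library a side. Red points are the 1424 genes 2-fold or more higher and blue points the 622 genes 2-fold or more lower, dotted lines mark 2-fold, and the slanted lines of points at the left are genes listed at 0 in 1 library. CCL5 and SOD2 stand highest among abundant genes and COL3A1, CXCL14, POSTN and SOSTDC1 lowest.

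The difference of a gene went with the length and the base composition of its transcript. Transcripts of 300 to 1000 bases had a median log2 difference of 0.71 and 34.1% of them were 2-fold higher, whereas transcripts of over 6000 bases had a median of -0.15 and 3.76% were higher. Transcripts of under 40% GC had a median of -0.14 with 4.55% higher, and those of over 60% GC a median of 0.71 with 33.7% higher. Across 10611 genes of these 2 libraries the Spearman coefficient with the difference was -0.33 for length and 0.38 for GC. Both held together: in 24 bins of length and GC, of 41 to 1225 genes each, the median ran from -0.20 to 1.04. By chromosome the median ran from -0.11 on chromosome 18 to 0.36 on the GC-rich chromosome 19, and from -0.05 to 0.06 once genes of like length and GC were subtracted. In SK-N-SH the medians ran from 0.24 in the shortest to 0.08 in the longest class and, by GC, from -0.04 in the lowest to 0.19 in the highest class. In K562 they went from 0.20 in the lowest to 1.31 in the highest GC class, but did not fall steadily with length, at 0.26 in the shortest class, 0.51 at 1500 to 2000 bases and 0.27 in the longest. When the median of genes of like length and GC was subtracted from each gene, 693 genes were 2-fold higher and 642 lower, in place of 1208 and 514 among the same 10602 genes. Higher genes made up 68.4% of the calls among all kept genes and 51.9% after the subtraction. The part of length and GC share in any single difference was not tested. Below, list medians are given before and after this subtraction, an alternative that was added after the data had been seen. Counts of list members are to be read beside the 12.1% higher and 5.57% lower of all kept genes. A member under 1 FPKM in 1 library was kept only through the other, so the filter favours its call in every list.

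**Figure D2:**
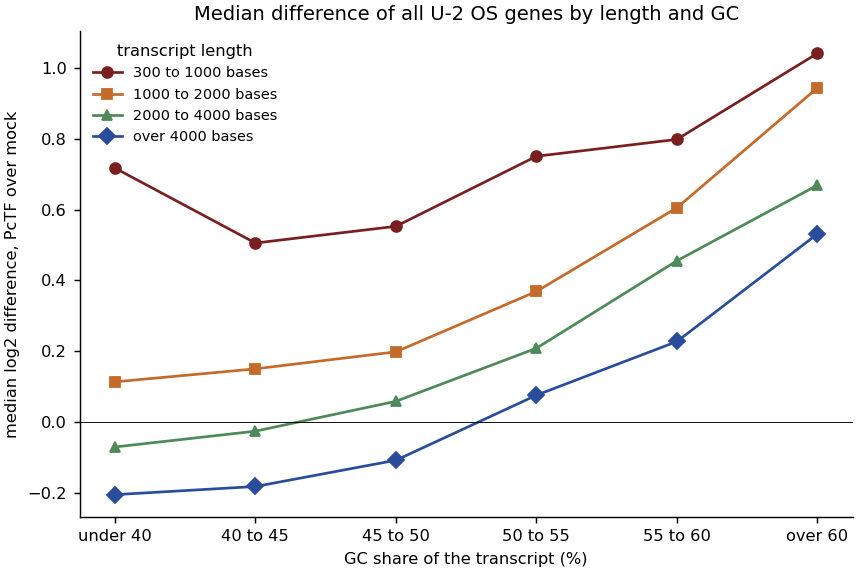
Median log2 difference (PcTF over mock, FPKM + 0.1) of all kept genes with a known transcript, by GC share of the transcript in percent (horizontal axis) and transcript length (4 lines). The median is highest for transcripts of 300 to 1000 bases and over 60% GC, at 1.04, and lowest for those of over 4000 bases and under 40% GC, at -0.20.

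The 20 highest differences outside the preset lists included those of several chemokines and acute phase proteins. CCL5, a chemokine that attracts T cells and monocytes, was at 14.2 FPKM in mock cells and 1036 FPKM in PcTF cells, a log2 difference of 6.18, with a counting interval of 5.86 to 6.53 on the log2 ratio of reads. It had the largest gain in FPKM among genes past 2-fold, small RNAs left out. CXCL10 and CXCL11, ligands of the receptor CXCR3 on activated T cells, were at 8.49 and 7.47 FPKM in mock cells and at 227 and 227 FPKM with PcTF. CXCL10 and CXCL11 share their deposited interval with each other and with a further gene, so reads could be split between these genes. IL8, a neutrophil attractant, was at 0.682 and 34.3 FPKM, and CXCL5, which acts on the same receptor, was at 0.363 and 12.2 FPKM. CCL20 was at 1.93 and 31.2 FPKM and CCL3 at 0.691 and 11 FPKM. The gene of the myeloid growth factor GM-CSF, CSF2, was listed at 0 in mock cells and reached 25.3 FPKM with PcTF, about 63 reads. The acute phase proteins SAA1 and SAA2 were at 1.88 and 0.445 FPKM in mock cells and 129.5 and 42.7 FPKM with PcTF. SAA2 shares its interval with other genes, and the SAA1 and SAA2 transcripts are nearly alike, so their split is uncertain. Estimated mock reads were few for several of them, with 3 for SAA1, 4 for CXCL5 and 2 for CCL3, against 76 for CCL5.

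Most of the 20 that were kept in SK-N-SH were higher there too. Of these 20 genes, 15 reached 1 FPKM in an SK-N-SH library and 13 of them were 2-fold or more higher, where 5.04% of all genes kept in that line were. In K562, 8 reached 1 FPKM, and 2 of them were higher and 2 lower, where 28% and 11.6% of all kept genes were. These 20 were chosen for their U-2 OS values, and the lines share no library. CSF2 was listed at 0 in mock SK-N-SH and at 18 FPKM with PcTF, and IL8 was at 1.03 and 163 FPKM. CCL5 stayed low there, at 0.563 and 2.14 FPKM. Several of the 20 rest on few reads or on shared loci. The read-through gene TGIF2-C20ORF24 and C18orf32 share their intervals with 3 and 6 other genes, and HIST1H2AD with 1. TGIF2-C20ORF24 shares its interval with C20orf24, one of the 20 lowest unlisted genes, so reads could be split between them. FDCSP was listed at 0 in mock and rested on about 9 reads with PcTF. PAEP, a secreted lipocalin, was listed at 0 in mock cells and reached 6.97 FPKM with PcTF. NEURL3, a ubiquitin ligase, was at 0.278 and 5.71 FPKM.

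**Figure D3:**
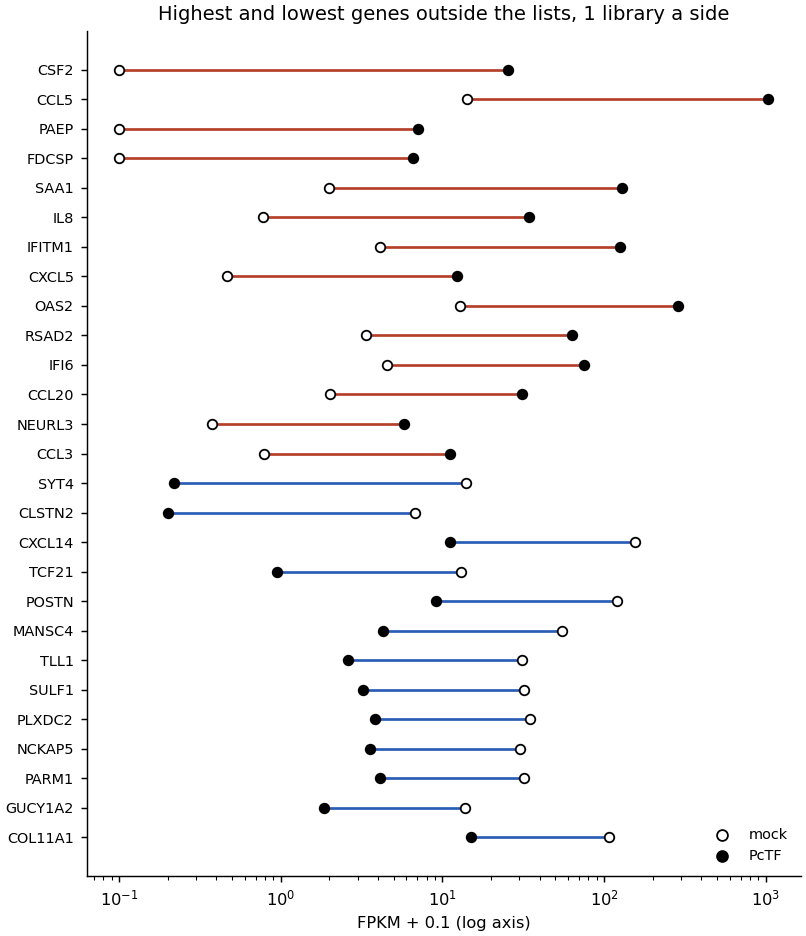
FPKM + 0.1 on a log axis in mock (open circles) and PcTF (filled circles) for 14 of the highest and 13 of the lowest unlisted genes, whose intervals are not shared with another gene, 1 library a side. CCL5 moves from 14.2 to 1036 FPKM and POSTN from 119.6 to 9.0 FPKM.

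Antiviral genes were also among these 20. OAS2, which makes the oligoadenylates that activate RNase L, was at 12.8 FPKM in mock cells and 286 FPKM in PcTF cells. RSAD2, the antiviral radical-SAM enzyme viperin, was at 3.28 and 63.3 FPKM, and the mitochondrial protein IFI6 at 4.45 and 74.7 FPKM. IFITM1, a membrane protein that blocks viral entry, was at 3.99 and 125 FPKM. OAS2, RSAD2 and IFITM1 were listed at 0 in the U2OS-dTF line, in a table normalized separately, where IFI6 was at 11.5 FPKM. In SK-N-SH the same genes were at 0.158, 0.116, 0.609 and 1.87 FPKM in mock and at 18.1, 7.04, 36.1 and 41.7 FPKM with PcTF, so all of them were higher in that line too.

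Upstream bases of some named genes are shown where their promoters hold a match to either of the motifs described below. Promoter windows were RefSeq sequences (GRCh38.p14) of 250 bases before and 50 after the start. Windows were matched for 1032 of 1424 higher genes, or 72.5%, which is under 80%, so no share of promoters was compared between higher and lower genes. The core of the interferon-stimulated response element, bound by interferon regulatory factors, was searched on both strands as GAAA, any 2 bases and GAAA, and 3.65% of all 27305 promoter windows held it. The NF-kB site was searched on both strands as GGGA, any base and TTTCC and was held by 0.571% of windows. Of 134 named genes past a 4-fold difference 92 had a window, and 11 of those 92 held at least 1 match to either motif in the bases before the start. The sequences printed were picked from the 11 named genes because they hold a match and show its forms. Capitals mark each match, overlapping matches run together, and a match on the other strand reads as its reverse complement, as in HERC5, TNFSF10 and GBP4. The stretches run 5′ to 3′ along the gene, with ISG15 at chr1:1013354-1013429, plus strand, IFI6 at chr1:27672246-27672378, minus strand, IFITM1 at chr11:313970-314039, plus strand, CXCL10 at chr4:76023679-76023747, minus strand, HERC5 at chr4:88456964-88457084, plus strand, TNFSF10 at chr3:172523578-172523647, minus strand, CXCL5 at chr4:73998729-73998798, minus strand, GBP4 at chr1:89198948-89199017, minus strand and POSTN at chr13:37598903-37598972, minus strand.
ISG15: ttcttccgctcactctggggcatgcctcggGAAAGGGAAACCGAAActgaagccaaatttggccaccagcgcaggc
IFI6: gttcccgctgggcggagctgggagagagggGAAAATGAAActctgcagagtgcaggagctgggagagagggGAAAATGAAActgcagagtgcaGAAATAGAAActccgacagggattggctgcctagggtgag
IFITM1: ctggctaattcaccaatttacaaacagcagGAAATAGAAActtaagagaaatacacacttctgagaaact
CXCL10: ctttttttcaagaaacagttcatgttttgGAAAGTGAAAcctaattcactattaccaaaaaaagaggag
HERC5: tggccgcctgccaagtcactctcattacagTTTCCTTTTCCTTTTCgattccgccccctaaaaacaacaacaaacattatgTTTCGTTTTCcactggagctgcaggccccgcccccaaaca
TNFSF10: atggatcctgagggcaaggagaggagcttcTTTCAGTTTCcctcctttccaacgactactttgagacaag
CXCL5: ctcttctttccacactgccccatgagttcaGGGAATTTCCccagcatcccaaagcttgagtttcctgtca
GBP4: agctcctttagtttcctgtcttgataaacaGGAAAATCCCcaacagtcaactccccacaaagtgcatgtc
POSTN: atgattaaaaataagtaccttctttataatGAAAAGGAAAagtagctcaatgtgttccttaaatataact
IFI6 held several response element cores and ISG15 an overlapping pair, and CXCL5 and GBP4 held the NF-kB letters. POSTN, which was lower with PcTF, held the response element core too. A match is a description of the letters and not a site shown to be bound.

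More than 2-fold differences were frequent among nucleic acid sensors. Of 22 kept sensors and adaptors, 15 were 2-fold higher and none lower, against 12.1% and 5.57% of all kept genes, with a median log2 difference of 1.41, which was 1.44 after genes of like length and GC were subtracted. DHX58, a regulator of the RNA sensors RIG-I and MDA5, was at 0.424 and 3.29 FPKM, and DDX58, which encodes RIG-I, at 56.7 and 324 FPKM. TREX1, which degrades cytosolic DNA, was at 0.475 and 3.97 FPKM, and ZBP1, a sensor of Z-form nucleic acid, was listed at 0 in mock cells and reached 3.67 FPKM with PcTF. Of the 15 higher genes 5 were under 1 FPKM in mock, so they were kept only through the PcTF library. Low mock levels held for DHX58, TREX1 and ZBP1, with 5 estimated mock reads for DHX58 and 2 for TREX1. IFIH1, which encodes MDA5, and IFI16, a DNA sensor, were abundant already in mock, at 49.9 and 104 FPKM, and were at 239 and 276 FPKM with PcTF.

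Few interferon genes were detected. Of 21 interferon ligand genes 1 was kept, and 18 were listed at 0 in both libraries. IFNK, made mainly by keratinocytes, was the kept gene, at 1.31 and 1.25 FPKM. IFNB1, the main interferon of fibroblasts and epithelial cells, was listed at 0 in mock cells and reached 0.734 FPKM with PcTF, which is under the 1 FPKM limit. Of 21 kept receptors, signal transducers and regulatory factors, 6 were higher and none lower, with a median of 0.41 that came to 0.12 after subtraction. IRF1, a transcription factor of this group, had 1.59 and 6.68 FPKM, and USP18, which removes ISG15 and dampens the interferon receptor, had 0.335 and 1.53 FPKM.

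The effector lists had the highest medians of the pathway lists. Guanylate-binding proteins and interferon GTPases, which attack vacuoles and viral capsids, had a median of 1.91, with 6 of 8 kept genes higher and none lower, and 2.01 after subtraction. MX2 was at 0.445 and 22.3 FPKM, GBP5 at 1.28 and 40.7 FPKM, and GBP4 at 5.2 and 36.6 FPKM. Interferon-induced PARPs and the ISG15 conjugation genes had a median of 1.5, with 15 of 20 higher and none lower, and 1.55 after subtraction. ISG15, the ubiquitin-like protein itself, was at 4.87 and 95.4 FPKM, and HERC5, the ligase that attaches it, at 1.3 and 21.7 FPKM. PARP14, an ADP-ribosyltransferase, was abundant already in mock at 167 FPKM and reached 438 FPKM. These effector lists and the sensors had medians of 1 or more under each of the 4 alternatives tried for list medians.

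**Figure D4:**
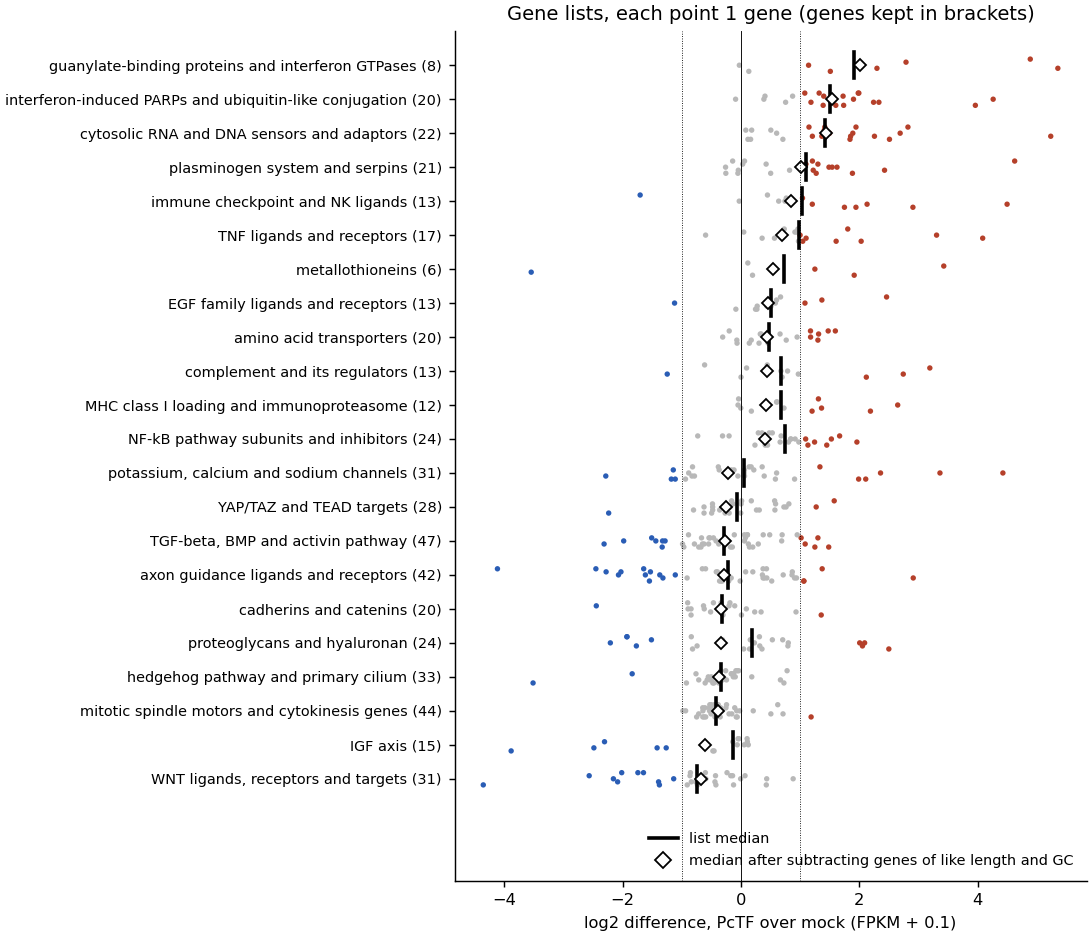
Log2 difference (PcTF over mock, FPKM + 0.1) of each kept member of the 10 lists with the lowest and the 12 lists with the highest median after subtraction of genes of like length and GC, among lists of 6 or more kept genes. Red and blue points are past 2-fold, bars are list medians and diamonds the medians after subtraction, from 2.01 for guanylate-binding proteins to -0.68 for WNT genes.

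Some antigen presentation genes were higher. Of 12 kept class I loading and immunoproteasome genes, 5 were higher and none lower (median 0.67, after subtraction 0.42). PSMB10, an immunoproteasome subunit, was at 5.1 and 32.6 FPKM, NLRC5, the transactivator of class I genes, at 0.439 and 2.36 FPKM, and B2M, the light chain of class I molecules, at 287 and 662 FPKM. The B2M difference of 1.2 was not past 2-fold once like genes were subtracted, at 0.49. In the class II list 3 of 8 kept genes were higher, namely HLA-DQA1, CTSS and CD74 (median 0.59, after subtraction 0.35). Of these 3 genes 2, HLA-DQA1 and CTSS, were under 1 FPKM in mock and were kept only through the PcTF library. CD74, the invariant chain of class II molecules, was at 26.3 and 215 FPKM, CTSS, the protease that trims it, at 0.787 and 8.73 FPKM, and HLA-DQA1 at 0.153 and 2.79 FPKM. Class II genes vary between haplotypes, and reads of near-alike copies can be split, so the HLA-DQA1 level is uncertain. Leukocytes also carry class II genes. The summed level of the 15 leukocyte markers was 4.39 FPKM in mock and 9.25 FPKM with PcTF. Of them 3 were kept, all 3 above 0 in difference, and 7 were listed at 0 in both libraries. The pan-leukocyte gene PTPRC was under 1 FPKM in both libraries and below its mock level with PcTF. Both cultures were of the U-2 OS line, and a part of leukocyte RNA in the class II values was not tested. Of 13 kept checkpoint and NK ligands, 7 were higher and 1 lower (median 1.04, after subtraction 0.84). Of the 7 higher genes 5 were under 1 FPKM in mock and were kept only through the PcTF library, so the filter itself favours this count and median. IDO1, which degrades tryptophan and restrains T cells, was listed at 0 in mock cells and reached 2.16 FPKM with PcTF, LGALS9 was at 0.147 and 1.75 FPKM, and PDCD1LG2 at 0.74 and 3.58 FPKM.

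NF-kB, TNF and cell death lists had members 2-fold higher and none lower, while most members lay between. Of 24 kept NF-kB subunits and inhibitors 7 were higher and none lower, with a median of 0.74, or 0.40 after subtraction. BIRC3, an inhibitor of apoptosis bound to TNF receptor complexes, was at 201 and 641 FPKM, TRAF1 at 2.85 and 11.4 FPKM, and NFKBIA, the inhibitor that NF-kB itself induces, at 12 and 33 FPKM. BIRC3 was thus at a high level in mock and had one of the 12 largest gains in FPKM past 2-fold, small RNAs left out. TNF ligands and receptors had a median of 0.97, with 8 of 17 higher and none lower (0.69 after subtraction). Of these 8 genes 2 were under 1 FPKM in mock and were kept only through the PcTF library. TNFSF10, the death ligand TRAIL, was at 2.0 and 35.5 FPKM, TNFSF13B, a B cell survival factor, at 1.1 and 11.8 FPKM, and TNFRSF11B, the decoy receptor osteoprotegerin made by bone cells, at 35.4 and 145 FPKM. Of 28 kept cell death genes 10 were higher and none lower (median 0.60, after subtraction 0.25). The 10 higher genes included 3 under 1 FPKM in mock, which were kept only through the PcTF library. CASP1, the inflammatory caspase, was at 1.99 and 17.1 FPKM, XAF1 at 37.5 and 169 FPKM, and TRADD, an adaptor of the TNF receptor, at 0.48 and 4.02 FPKM.

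Among complement genes C3, the central component, was at 6.14 and 57 FPKM and the protease C1S at 10.8 and 73 FPKM, while CFI, which inactivates C3b, was lower, at 11.7 and 4.89 FPKM. In that list 3 of 13 kept genes were higher and 1 lower, against 12.1% and 5.57% of all kept genes. The list median of 0.68 came to 0.44 after subtraction. The plasminogen system and serpins, which control clotting and matrix proteolysis, had a median of 1.1, with 11 of 21 higher and none lower, and 1.02 after subtraction. Of the 11 higher genes 5 were under 1 FPKM in mock and were kept only through the PcTF library, so the filter itself favours this count and median. SERPINA1, the inhibitor of neutrophil elastase, was at 8.69 and 47.2 FPKM, SERPINB8 at 3.29 and 12.4 FPKM, and PLAUR, the urokinase receptor, at 5.51 and 17.2 FPKM. SERPINB7 was listed at 0 in mock cells and reached 2.37 FPKM with PcTF.

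Of the antioxidant genes SOD2 had one of the 12 largest gains in FPKM. This gene, which encodes the mitochondrial superoxide dismutase and is an NF-kB target, was at 45 FPKM in mock cells and 671 FPKM in PcTF cells, and SK-N-SH cells had 22.3 and 268 FPKM. The NRF2 and antioxidant list as a whole had 5 of 35 genes higher and 2 lower, near the 12.1% and 5.57% of all kept genes, and its median of 0.40 came to 0.03 after subtraction. Its lower members were GPX2, at 3.19 and 0.642 FPKM, and GPX7, at 10.2 and 4.55 FPKM. MT2A, a metallothionein that binds zinc and copper, was at 17.1 and 186 FPKM and MT1E at 10.2 and 38.6 FPKM, whereas MT1G was at 1.07 FPKM in mock and listed at 0 with PcTF. The metallothionein list, with 3 of 6 kept genes higher and 1 lower, had a median of 0.72, and 0.54 after subtraction. Metallothionein transcripts are short and alike, so reads could be split between copies. In tryptophan and NAD metabolism WARS, the tryptophanyl-tRNA synthetase that interferon induces, was at 11.8 and 40.8 FPKM, while TDO2, which degrades tryptophan in the liver, was at 9.97 and 2.49 FPKM. The amino acid transporter list had 6 of 20 kept genes higher and none lower (median 0.47, after subtraction 0.44). SLC43A3 was counted through this list, without a check of what it carries, and was at 18.3 and 55.6 FPKM.

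The largest loss in FPKM past 2-fold, small RNAs left out, was that of COL3A1, a fibrillar collagen of soft connective tissue. It was at 451 FPKM in mock cells and 28.6 FPKM in PcTF cells, a log2 difference of -3.97 with a counting interval of -4.09 to -3.86 on the log2 ratio of reads. Its interval is shared with small RNA genes. POSTN, the matrix protein periostin of periosteum and tumour stroma, was at 119.6 and 9.0 FPKM, and COL11A1, a collagen of cartilage, at 108 and 14.9 FPKM. CXCL14, a chemokine of epithelia and fibroblasts, was at 156 and 11.1 FPKM, unlike the chemokines that were higher. The chemokine CXCL12 was lower too, with a log2 difference of -3.58. TLL1, a protease that processes procollagens and BMP inhibitors, was at 31 and 2.51 FPKM, and SULF1, which trims sulphate from heparan sulphate, at 32.1 and 3.14 FPKM. TCF21, a transcription factor of mesoderm development, was at 12.9 FPKM in mock cells and 0.854 FPKM in PcTF cells. For COL3A1, POSTN and CXCL14 the estimated reads in mock were 11609, 1804 and 1126, so counting error was small.

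SYT4 and CLSTN2 had the lowest differences among unlisted genes that share no interval. SYT4, a synaptotagmin of neuropeptide vesicles, was at 14 FPKM in mock cells and 0.12 FPKM in PcTF cells, about 254 and 2 reads, and CLSTN2, a synaptic cadherin-like protein, at 6.69 and 0.0997 FPKM. FLRT3, an adhesion receptor of axons and FGF signalling, was at 5.03 and 0.244 FPKM. GUCY1A2, a subunit of the nitric oxide receptor, was at 13.6 and 1.76 FPKM, PLXDC2 at 34.6 and 3.71 FPKM, NCKAP5 at 30.2 and 3.47 FPKM and PARM1 at 31.9 and 3.99 FPKM. MANSC4 was at 54.7 and 4.19 FPKM. RAG2, FLRT3, HOXB-AS3, C20orf24 and LOC100129216 share their intervals with other genes, and their levels are uncertain. HOXB-AS3 rested on about 10 reads in mock.

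In the U2OS-dTF line POSTN, SYT4, CLSTN2, TLL1, SULF1 and MANSC4 were listed at 0, COL3A1 was at 0.196 FPKM, COL11A1 at 5.04 FPKM and CXCL14 at 27.3 FPKM. The line is a separate transgenic culture whose table was normalized separately, so its values are set beside the others without a comparison. SK-N-SH cells, by contrast, had COL3A1 at 971 and 494 FPKM, POSTN at 457 and 523 FPKM and SYT4 at 46.6 and 67.1 FPKM, mock first. Of the 20 lowest unlisted genes, 9 reached 1 FPKM in an SK-N-SH library and 3 of these were 2-fold lower and none higher. In K562 3 of the 20 reached it, of which 1 was lower and 1 higher. Of all genes kept in each line 2.01% were 2-fold lower in SK-N-SH and 11.6% in K562, and 5.04% and 28% were 2-fold higher.

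WNT genes had the lowest median of the pathway lists. Of 31 kept ligands, receptors and targets, 10 were lower and none higher, against 5.57% and 12.1% of all kept genes. Of the 10 lower genes 3 were under 1 FPKM with PcTF. The median was -0.75, or -0.68 after subtraction, and 27 genes had a difference below 0. SOSTDC1, a secreted antagonist of WNT and BMP, was at 145 and 7.0 FPKM. LGR4, a receptor for the WNT-enhancing R-spondins, was at 39.9 and 6.66 FPKM, and the receptor FZD10 at 1.93 and 0.379 FPKM. DKK2, another secreted modulator, was at 1.25 and 0.204 FPKM. LGR5, a receptor related to LGR4 and itself a WNT target, was at 57.2 and 18.2 FPKM, and the target AXIN2, a feedback inhibitor, at 4.37 and 1.62 FPKM. Receptor, antagonist and target genes were thus all among the lower members.

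In the IGF axis, a growth factor list, 5 of 15 kept genes were lower and none higher, against 5.57% and 12.1% of all kept genes. IGF1 itself was at 16.5 and 1.03 FPKM, IGFBP5, a binding protein abundant in bone, at 9.94 and 1.93 FPKM, and IGF2 at 4.33 and 1.56 FPKM. The median of the list was -0.14 and -0.61 after subtraction. Of 14 kept FGF genes 3 were higher and 3 lower (median -0.10, after subtraction -0.12). FGF9 was at 3.45 FPKM in mock and listed at 0 with PcTF, and the receptor FGFR2 at 16.2 and 3.43 FPKM, while FGF5 was at 1.34 and 4.01 FPKM. Of 17 PDGF, VEGF and related genes 6 were lower and 3 higher (median 0.02, after subtraction -0.21). Of the 6 lower genes 4 were under 1 FPKM with PcTF and were kept only through the mock library. KITLG, the ligand of the receptor KIT, was at 7.27 and 1.18 FPKM and PDGFC at 21.2 and 4.82 FPKM, while CSF1, the macrophage growth factor, was at 1.52 and 5.77 FPKM. Of 13 kept EGF family genes 3 were higher and 1 lower and 9 lay between (median 0.51, after subtraction 0.45), and BTC was at 0.183 and 1.46 FPKM.

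In the TGF-beta and BMP list 7 of 47 genes were lower and 5 higher, against 5.57% and 12.1% of all kept genes. The median was -0.29, and -0.27 after subtraction. LTBP1, which stores latent TGF-beta in the matrix, was at 31.2 and 6.2 FPKM, FST, the activin antagonist follistatin, at 37.6 and 9.44 FPKM, and SMAD9, a BMP signal transducer, at 15 and 5.22 FPKM. HHIP, a hedgehog antagonist and target, was at 8.18 and 0.626 FPKM, and GAS1, a hedgehog co-receptor, at 3.43 and 0.889 FPKM. They were the lower genes of 33 kept hedgehog and cilium genes, whose median was -0.34, and -0.36 after subtraction. HHIP and GAS1 were under 1 FPKM with PcTF and were kept only through the mock library. Axon guidance genes, which also steer vessels and mesenchyme, had 12 of 42 lower and 4 higher (median -0.22, after subtraction -0.28). Of the 12 lower genes 6 were under 1 FPKM with PcTF, and of the 4 higher genes 3 were under 1 FPKM in mock. These were kept only through the library in which they were high. SEMA3E was at 39.2 and 7.09 FPKM and SEMA3D at 1.32 and 0.193 FPKM, ROBO2 was at 1.63 FPKM in mock and listed at 0 with PcTF, and ROBO4, of endothelium, was at 0.169 and 1.93 FPKM.

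**Figure D5:**
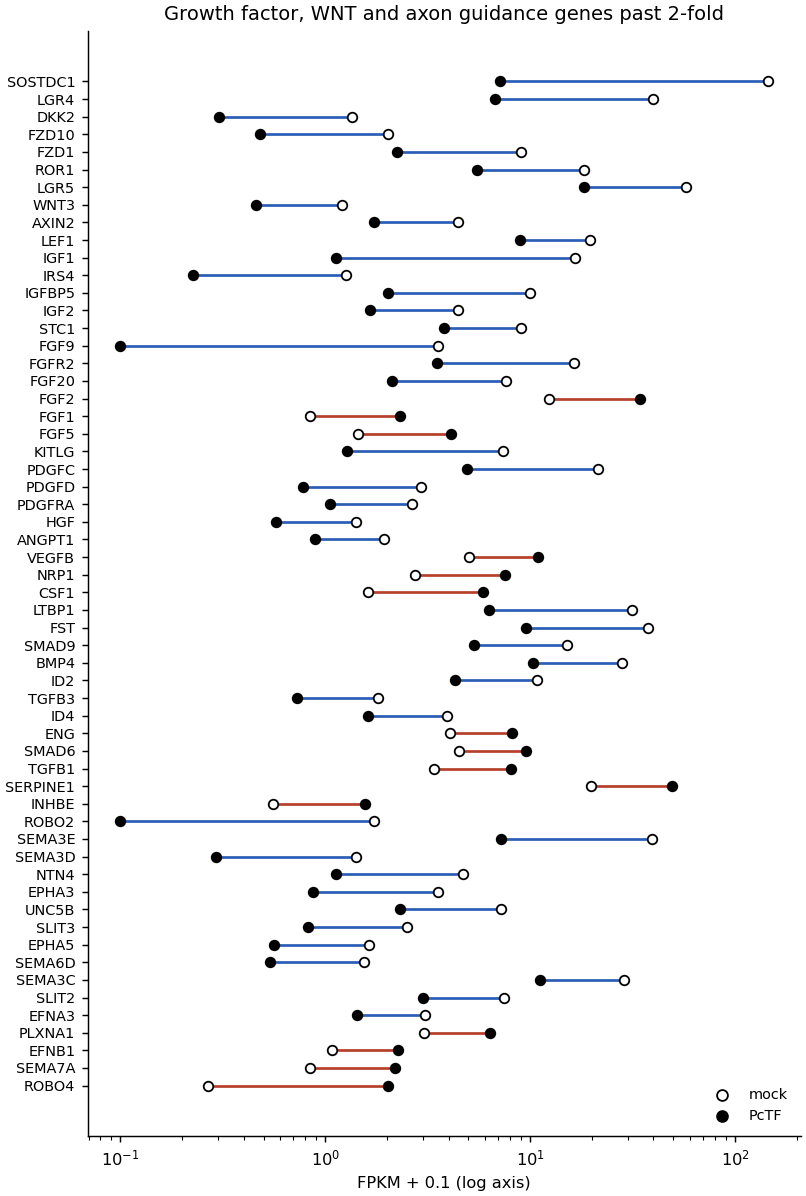
FPKM + 0.1 on a log axis in mock (open circles) and PcTF (filled circles) for the 58 genes past 2-fold in the WNT, IGF, FGF, PDGF and VEGF, TGF-beta and BMP, and axon guidance lists, in list order, 1 library a side. Blue lines join the 43 lower and red lines the 15 higher genes, and all genes of the WNT and IGF lists, from SOSTDC1 to STC1, are blue.

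Matrix and adhesion lists held genes of both directions, against 12.1% higher and 5.57% lower of all kept genes. Of 24 kept proteoglycan and hyaluronan genes 4 were higher and 5 lower, and the median of 0.19 came to -0.34 after subtraction. VCAN, a large proteoglycan of loose matrix, was at 9.55 and 1.99 FPKM, while the membrane proteoglycan SDC4 was at 14.7 and 61.4 FPKM and the hyaluronan receptor CD44 at 16.2 and 65.6 FPKM. SDC2, of the same family as SDC4, was lower, at 95.1 and 25 FPKM. Of 24 integrins and laminins 5 were higher and 1 lower (median 0.06, after subtraction 0.07), among them the epithelial laminin chain LAMB3 at 2.94 and 15.6 FPKM and the collagen receptor chain ITGA2 at 51.7 and 209 FPKM. The mesenchymal chain LAMA4 was lower, at 14.3 and 1.25 FPKM. Of 20 kept metalloproteinases and inhibitors 4 (20%) were higher and 4 (20%) lower (median 0.13, after subtraction 0.04). Of the 4 higher 1 was under 1 FPKM in mock, and of the 4 lower 2 were under 1 FPKM with PcTF. MMP13, a collagenase, was at 0.326 and 2.97 FPKM and MMP9 at 2.5 and 11.4 FPKM, while the aggrecanase ADAMTS5 was at 2.38 and 0.123 FPKM. CLDN1, a tight junction protein, was at 3.59 and 18.2 FPKM. In the channel list, with a median of 0.06 and -0.23 after subtraction, 6 of 31 genes were higher and 4 lower, from KCNJ15 at 0.162 and 5.54 FPKM to KCNJ8 at 16.5 and 3.32 FPKM. Of the 6 higher channel genes 4 were under 1 FPKM in mock, and of the 4 lower 2 were under 1 FPKM with PcTF.

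Immediate early and feedback genes of the ERK pathway had 6 of 25 members higher and none lower, against 12.1% and 5.57% of all kept genes. Their median was 0.42, or 0.17 after subtraction. JUNB and FOSL1, subunits of the AP-1 transcription factor, were at 4.06 and 4.05 FPKM in mock cells and at 14 and 12.3 FPKM with PcTF, and MYC, a driver of growth, was at 13.6 and 42.3 FPKM. Among purine and pyrimidine synthesis genes 5 of 27 were higher and none lower (median 0.35, after subtraction 0.29). APRT, which salvages adenine, was at 3.49 and 17.3 FPKM.

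Eicosanoid genes past 2-fold were of both directions. PTGS2, the inducible cyclooxygenase COX-2, was lower, at 35.4 and 8.48 FPKM, as was the prostaglandin F receptor PTGFR, at 2.66 and 0.543 FPKM. ALOX5, which starts leukotriene synthesis, was at 4.16 and 8.79 FPKM and MGST1, a glutathione transferase of membranes, at 9.38 and 30.1 FPKM. Of the whole list 4 of 13 kept genes were higher and 2 lower, with a median of 0.15, against 12.1% and 5.57% of all kept genes. In iron handling, LCN2, a siderophore-binding protein of acute inflammation, was listed at 0 in mock cells and reached 2.26 FPKM with PcTF.

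Stress and degradation pathways showed single genes past 2-fold within lists of small medians. Of all kept genes 12.1% were higher and 5.57% lower, and the share higher was 12% in the unfolded protein response and 17.6% among V-ATPase subunits. In the unfolded protein response 3 of 25 genes were higher, among them DDIT3, the stress factor CHOP, at 4.46 and 14.2 FPKM and MANF at 19.5 and 46.7 FPKM, and the list median of 0.32 came to 0.10 after subtraction. In autophagy SQSTM1, the cargo receptor p62, was at 52.6 and 106 FPKM, one of 2 higher genes of 30 (median 0.17, after subtraction 0.09). Lysosomal genes had a median of 0.21, and -0.04 after subtraction, with 3 of 37 higher and 1 lower, the latter CTSK, the collagen-degrading cathepsin of osteoclasts, at 2.8 and 1.16 FPKM. All 3 higher genes of the lysosome were under 1 FPKM in mock and were kept only through the PcTF library. V-ATPase subunits, which acidify these organelles, had 3 of 17 higher (median 0.34, after subtraction 0.14).

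Developmental lists outside the growth factors held genes of both directions, against 12.1% higher and 5.57% lower of all kept genes. In the NOTCH list 3 of 21 genes were higher and 2 lower (median 0.12, after subtraction -0.05), with the target HES4 at 0.27 and 2.15 FPKM and the target HEY1 at 2.84 and 1.34 FPKM. Of 16 kept osteoblast and skeletal patterning genes 4 were higher and 2 lower (median 0.28, after subtraction 0.28). All 3 higher NOTCH genes and 3 of the 4 higher osteoblast genes were under 1 FPKM in mock and so were kept only through the PcTF library. MSX1, a homeobox factor of limb and craniofacial mesenchyme, was at 0.827 and 3.5 FPKM, and PRRX1, another such factor, at 11.1 and 4.06 FPKM. MYOCD, the coactivator of smooth muscle genes, was at 1.89 and 0.212 FPKM, one of 3 lower genes of 33 in the contractile list (median 0.16, after subtraction -0.09). All 3 were under 1 FPKM with PcTF and were kept only through the mock library. Cadherins and catenins had a median of -0.32, and -0.33 after subtraction, with 14 of 20 below 0, and the giant cadherin FAT3 was at 1.52 and 0.198 FPKM. Among chromatin enzymes TET1, which oxidises methylated cytosine, was at 23.5 and 8.01 FPKM.

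Few mitotic genes passed 2-fold. Of 44 kept spindle and cytokinesis genes 39 had a difference below 0, yet none passed 2-fold lower and 1 was higher, with a median of -0.42 that stayed at -0.39 after subtraction. KIF20A, a kinesin of cytokinesis, was at 98.5 and 49.9 FPKM, and TOP2A, the topoisomerase of dividing cells, at 361 and 189 FPKM. UBE2C, the ubiquitin-conjugating enzyme of the anaphase-promoting complex, was the gene that was higher, at 32.2 and 73.4 FPKM. Of 43 kept kinetochore genes 1 was lower, SPC24, at 1.36 FPKM in mock and listed at 0 with PcTF, and their median was -0.20, and -0.18 after subtraction. SPC24 belongs to the complex that binds kinetochores to microtubules. Replication origin and fork genes, of which none of 51 passed 2-fold, had a median of 0.07, and -0.05 after subtraction.

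In several lists of genes for protein synthesis and turnover the median came closer to 0 after subtraction. Mitochondrial ribosomal proteins had 19 of 75 genes higher and none lower, with a median of 0.58, and their median transcript was 1224 bases long. The median came to 0.16 after subtraction. Spliceosome genes went from 0.34 to 0.15 and core proteasome and ubiquitin genes from 0.38 to 0.05. Ribosome biogenesis genes stayed closer, at 0.47 and 0.37. NOP16, a nucleolar protein of the large ribosomal subunit pathway, was at 2.17 and 13.2 FPKM, and EIF4EBP1, a repressor of cap-dependent translation, at 2.5 and 12.8 FPKM. The ribosomal protein genes RPL38, RPLP2 and RPL30 had large gains in FPKM, yet their differences of 1.22, 1.04 and 1.05 came to 0.86, 0.24 and 0.54 after subtraction. The same held for TIMP1 and TMSB10, at 1.12 and 1.05 before and 0.32 and 0.30 after.

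Runs of 4 or more neighbouring kept genes past 2-fold in the same direction numbered 15 for higher and 3 for lower genes, with 87 of 11227 ordered genes in them (hg19 positions). The longest, of 11 genes, lies at chr11:289138-612222 and runs from ATHL1 past the IFITM genes to HRAS and PHRF1. IFITM2 and IFITM3 in it were at 4.67 and 43.2 FPKM in mock cells and 45.7 and 267 FPKM with PcTF, while PHRF1, of 63.3% GC, was at 0.731 and 1.58 FPKM. After subtraction of like genes 3 of the 15 runs of higher genes and 1 of the 3 runs of lower genes were left with the same genes, and 1 run of each direction was gained. Only genes with a known transcript were ordered after subtraction, so a run could also be lost or gained through genes left out. The run at the IFITM genes was not among the runs left. The 3 left were the guanylate-binding proteins at chr1:89472360-89738544, the IFIT genes at chr10:91061706-91180759, whose products bind foreign RNA, and the serpins SERPINB5, SERPINB7 and SERPINB8 with HMSD at chr18:61144144-61656608. IFIT1, IFIT2 and IFIT3 were at 35.1, 12.7 and 35.4 FPKM in mock cells and 212, 83.2 and 245 FPKM with PcTF. A run of lower genes, also left, lies at chr11:26688566-27494334 and holds SLC5A12, FIBIN, BBOX1, CCDC34 and LGR4. On chromosome 4 PDGFC, GLRB, GRIA2 and FAM198B formed a run of lower genes at chr4:157682763-159094202, in which FAM198B was at 128 and 24.2 FPKM and the glycine receptor chain GLRB at 42.1 and 12.2 FPKM. The runs gained were KCNQ5, KHDC1L, KHDC1 and OOEP on chromosome 6, which were higher, and on chromosome 7 the lower genes HOXA13, HOTTIP, HIBADH and TAX1BP1, an inhibitor of NF-kB signalling that was at 302 and 133 FPKM. IVNS1ABP, a lower gene with a large loss outside these runs, was at 135 and 40.5 FPKM.

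Small RNA symbols took all places of the naming rule as first written, 40 of 40 unlisted genes and 24 of 24 gains and losses. The interval deposited for many of them is that of a longer gene. Of 177 kept small RNA genes 71 were higher, 69 lower, and 118 were listed at 0 in 1 library. MIR3658 was listed at 0 in mock cells and reached 7827 FPKM with PcTF, and SNORD31 was at 2681 FPKM in mock and listed at 0 with PcTF. SNORD29, of the same host interval as SNORD31, went the other way, from 0 to 1409 FPKM. MIR1245A, whose interval is that of COL3A1, was at 1619 FPKM in mock and listed at 0 with PcTF. Neighbours in the same interval thus went opposite ways, and no direction is read from small RNA values.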

How the data were processed

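RNA of 1 PcTF-transfected and 1 mock-transfected U-2 OS library was amplified from a single primer and read as 50-base single ends by the authors. Per the submitters' processing notes and the study's methods, quality was checked with FastQC and trimmed reads went through TopHat2 2.1.0 and Bowtie2 onto hg19, and the authors computed the deposited FPKM per gene with Cuffdiff. FPKM is scaled to library depth and gene length. Their columns of fold changes, test statistics, p-values and q-values were not used. 1 column that is a mean of several libraries was left out, and 1 library that no column holds was not analysed here.

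The log2 difference (pseudocount 0.1 FPKM, 1 FPKM or more in either library) was computed with Python 3.11.15, numpy 2.4.6, pandas 2.3.3 and scipy 1.17.1, and figures were drawn with matplotlib 3.10.9. 7 genes marked as failed or too deep in the deposited table were left out, 5 of them at 1 FPKM or more. Reads per gene were estimated from depth (4865000 and 4270000 reads, from low values that were whole multiples within 3%), a fragment of 200 bases (SD 80) and the canonical transcript length, so they are too high where a shorter isoform is used. Depth limits low genes most. The steps were tested on simulated data.

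Members and gene lists (61 pathway and 6 marker lists) were chosen with earlier results of these data known. Named genes are the 20 highest and 20 lowest differences in no list (5 FPKM or more, locus of 1000 bases or more), up to 4 members of each list, the 12 largest gains and losses past 2-fold, and CBX8 with the control genes. Leaving small RNA symbols out of this rule was decided after seeing the data. VIM, IFNB1, IFIH1, IFI16, CD44, CXCL12, LGR5, AXIN2, GPX7, HEY1, ALOX5, the leukocyte markers and the genes in runs lie outside the rule and were chosen after their values were seen. Promoter windows are RefSeq sequences of GRCh38.p14. Some results are not reported here.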

Additional observations from a re-analysis of the deposited data

Results flagged for a closer look

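Some of the named genes past 2-fold in U-2 OS moved past 2-fold the other way in another line, with 1 library a side, so the difference between lines was not tested. In K562, CXCL11 had a log2 difference of -1.58, at 10.9 FPKM in mock cells and 3.57 FPKM in PcTF cells. IFITM1 had a log2 difference of -1.56 in K562, where mock cells were already at 1085 FPKM and PcTF cells at 367 FPKM. RPL38 had a log2 difference of -1.89 in K562, at 5774 and 1559 FPKM. C20orf24, whose deposited interval is shared with 3 other genes, had a log2 difference of 2.27 in K562, against -5.38 in U-2 OS. TGIF2-C20ORF24 in the same interval had 6.24 in U-2 OS, so reads could be split between these genes. SDC2 was listed at 0 in mock K562 and at 2.1 FPKM with PcTF, which the pseudocount turns into a value of 4.46 that is no bound on the difference. In SK-N-SH, SOSTDC1 had a log2 difference of 1.06, at 5.31 FPKM in mock cells and 11.2 FPKM in PcTF cells, against -4.35 in U-2 OS.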

How the results depend on the processing

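The count of genes 2-fold higher, 1495, became 891 with a pseudocount of 1 FPKM, 693 at 5 FPKM or more, 2556 without a filter, 942 among genes with 20 or more estimated reads and 693 after the median of genes of like length and GC was subtracted. The count of genes 2-fold lower, 691, became 395, 285, 1700 and 406 under the first 4 of these. The subtraction covers the 10602 genes with a known transcript, and among these it took the higher count from 1208 to 693 and the lower count from 514 to 642. The pseudocount shrinks low genes, and the filters change which genes are counted. A pseudocount of 0.01 FPKM, centring on the median ratio, and leaving out small loci or small RNAs kept both counts within 1.5 times. Higher genes made up 60.1% of calls without a filter and 51.9% after subtraction, against 68.4%. List medians of 1 or more numbered 5 and came to 3 with a pseudocount of 1 FPKM, where the serpin list had 0.63 and the checkpoint list 0.73. Runs of higher genes went from 15 to 4 after subtraction, 3 with the same genes as before and 1 new. Genes without a known transcript were left out of the runs after subtraction, and the cause of the change was not tested. No named gene past 2-fold changed sign: 270 of 312 named genes stayed on the same side of 2-fold with a pseudocount of 1 FPKM, 299 when centred and 242 of 302 after subtraction. The promoter motif shares planned for 4-fold genes and for 5 FPKM were not run, because fewer than 80% of genes had a promoter window. Each value rests on 1 library, and leaving out a replicate was not possible. No paired analysis was possible because there is 1 library a side.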
